A study of Ovis aries with 20 samples.

Results

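Receptors for angiotensin II and for catecholamines were followed in the hearts of newborn lambs. Members were all non-control array probes whose gene description held the word receptor together with angiotensin or adrenergic. They were 5 of 15008 probes and stood for 4 of the 861 genes that could be named, namely the angiotensin II type 1 receptor AGTR1 (1 probe), the type 2 receptor AGTR2 (2 probes), the beta-1 adrenoceptor ADRB1 (1 probe) and the beta-3 adrenoceptor ADRB3 (1 probe). AGTR2 carries the short name AT2 on the array.

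RNA came from the interventricular septum and the left ventricle (LV) of 10 lambs, measured on 20 one-colour arrays, 1 for each wall of each lamb. The labels of all 20 mark the lambs as telemetry newborns, which both treatments share, without saying more of the procedure. The cortisol lambs were born to ewes given cortisol, the main adrenal glucocorticoid, at 1 mg/kg per day from about day 115 of gestation until birth, and the control lambs to ewes given vehicle over the same period, with 5 lambs in each group. All hearts were collected 10 to 480 min after birth, and the time of each lamb, its sex and the breed are not given in the labels used here. The treatment was the ewe's, so a difference between the lambs includes whatever the infusion changed in the mother.

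Angiotensin II raises vascular tone and acts on heart muscle and fibroblasts through AGTR1, a receptor coupled to Gq, while AGTR2 is abundant in fetal tissues and usually declines after birth. Noradrenaline from sympathetic nerves and circulating adrenaline raise the rate and force of the heartbeat mainly through ADRB1, which acts through Gs, cyclic AMP and protein kinase A. ADRB3 is best known from fat cells. The period around birth is one in which cortisol, catecholamines and angiotensin II are all high.

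The type 2 receptor was read by a pair of probes and the rest by 1 each. Of the tested receptors, the probe of AGTR1 is not reported here, and those of AGTR2 and ADRB1 are shown. They are given 5′ to 3′ as the array design lists them, each 60 bases long and found once on the array.

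AGTR2, brighter probe: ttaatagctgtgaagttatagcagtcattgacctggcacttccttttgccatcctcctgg
AGTR2, second probe: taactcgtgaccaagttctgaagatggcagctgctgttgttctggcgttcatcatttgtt
ADRB1: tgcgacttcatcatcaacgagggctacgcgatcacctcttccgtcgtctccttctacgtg

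Both AGTR2 probes have a GC content of 45.0%, that of ADRB1 has 55.0%, that of ADRB3 53.3% and that of AGTR1 35.0%. Probes of different member genes and the 2 AGTR2 probes share runs of at most 8 bases. The scanner files list all 5 as unmapped, so no genome position is given.

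A level below is the log2 of the spot intensity after background subtraction, minus the log2 of that array's 75th percentile, so 0 is the brightness of a probe at that percentile. Levels of different probes are not set against each other, since probes differ in how brightly they report the same amount of RNA. The 20 arrays had 57.9% to 72.1% of spots well above background by the scanner software's own call. Heart muscle was represented among the named markers by myoglobin, MB, alone (1 of 17 listed genes), which was well above background on 20 of 20 arrays. The arrays lay on 4 slides, with slide largely following the wall of the heart. Slide 1 held 6 septum arrays, slide 3 held 6 LV arrays, slide 2 held 4 septum and 3 LV arrays, and slide 4 held 1 LV array. The septum array had the higher 75th percentile in 9 of 10 lambs.

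AGTR1, ADRB1 and AGTR2 were detected in both walls, and ADRB3 was not. AGTR1 was well above background on 20 of 20 arrays. ADRB1 was so on 19 of 20, the exception being the LV of control lamb 3. AGTR2 was well above background on 16 of 20 arrays with its brighter probe, 8 in septum and 8 in LV, and on 13 of 20 with its second probe. ADRB3 was well above background on 0 of 20 arrays, with processed intensities of 1.60 to 8.99 units. By the scanner's weaker criterion, that a spot is positive and significantly above its surroundings, ADRB3 passed on 10 of 20. No fold or test is given for it, and 3 of the 4 genes were tested. In pieces of tissue such as these, fewer cells of a type and less RNA per cell cannot be told apart.

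**Figure D1:**
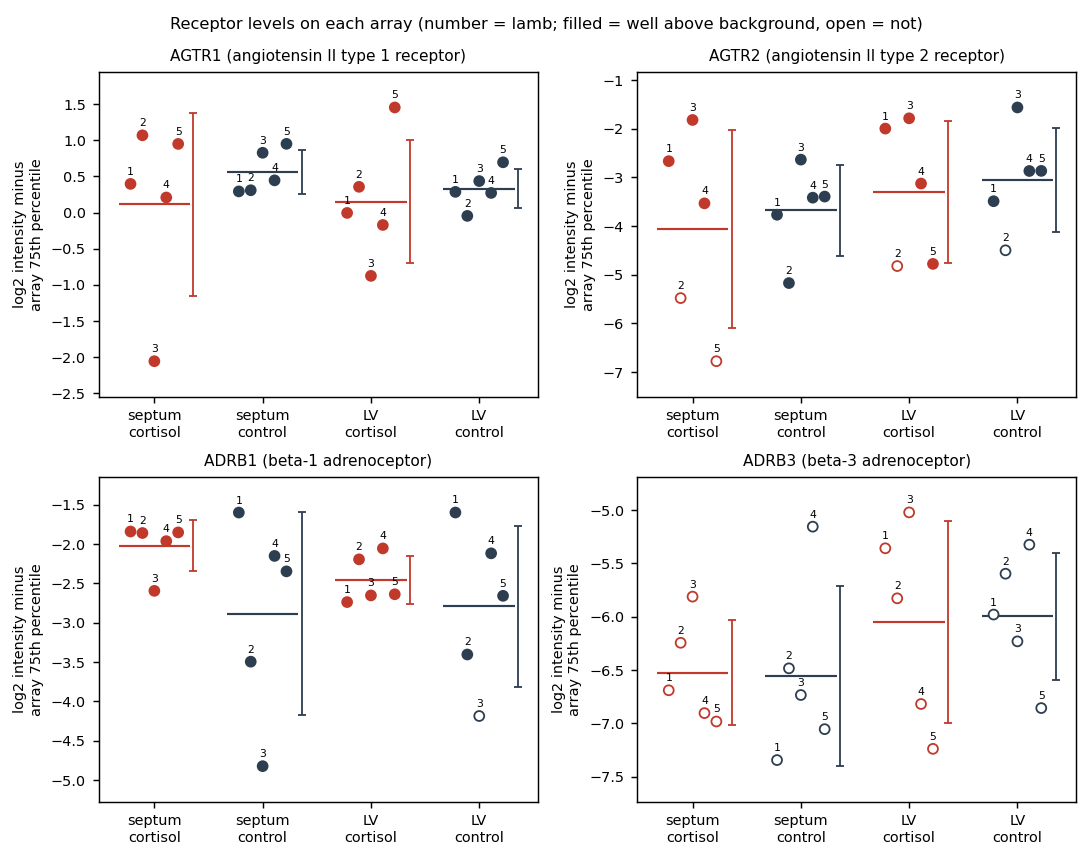
Level of each receptor (log2 intensity minus the array's 75th percentile) on each array, with 1 point per lamb numbered by lamb, a bar at the mean of the group and an error bar of 1 SD. Cortisol groups are red and control groups dark, and open points were not well above background, which holds for every ADRB3 point. The cortisol points of ADRB1 lie close together, whereas its control points spread from -4.82 to -1.60 in septum.

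Maternal cortisol was compared with vehicle in each wall, which asks whether the fetal heart's receptors for 2 other stress hormone systems differed after raised maternal cortisol. None of the 3 tested receptor genes passed in either wall. The point estimates were positive for ADRB1 and negative for AGTR1 and AGTR2, and all intervals spanned 0.

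For ADRB1, the main target of noradrenaline in heart muscle, the septum levels were -1.84, -1.86, -2.60, -1.96 and -1.85 in cortisol lambs 1 to 5, against -1.60, -3.50, -4.82, -2.15 and -2.35 in control lambs 1 to 5. Cortisol lambs lay within a narrow band, and control lamb 1 was above all of them while control lambs 2 and 3 were far below. In LV the levels were -2.74, -2.19, -2.65, -2.06 and -2.64 in cortisol lambs, against -1.60, -3.40, -4.19, -2.12 and -2.66 in control lambs. The same control lambs stood at the top and the bottom, and the groups overlapped in both walls. ADRB1 averaged -2.02 ± 0.32 in septum of cortisol lambs and -2.88 ± 1.29 in septum of control lambs (SD, n = 5 each). In LV the averages were -2.46 ± 0.31 in cortisol lambs and -2.79 ± 1.03 in control lambs (SD, n = 5 each). The difference, cortisol minus control, was 0.86 ± 0.52 (SE) in septum, with a 95% confidence interval of -0.28 to 2.00, and its adjusted p in limma was 0.818. It was 0.34 ± 0.42 in LV, with an interval of -0.59 to 1.27 and an adjusted p in limma of 0.907. Folds from 0.823 to 4.01 in septum therefore lie within the interval, a fall as well as a rise. Leaving out 1 control lamb moved the difference both ways. It was 0.38 in septum and -0.01 in LV without control lamb 3, and 1.18 in septum and 0.64 in LV without control lamb 1.

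For AGTR1, the receptor that carries most cardiovascular actions of angiotensin II, the septum levels were 0.40, 1.07, -2.05, 0.21 and 0.95 in cortisol lambs 1 to 5, against 0.29, 0.31, 0.83, 0.45 and 0.95 in control lambs. Cortisol lamb 3 stood alone at the bottom, and the other 4 cortisol lambs covered the range of the controls. In LV the levels were 0.00, 0.36, -0.87, -0.17 and 1.45 in cortisol lambs, against 0.29, -0.05, 0.44, 0.27 and 0.70 in control lambs. Cortisol lamb 3 was again the lowest, and cortisol lamb 5 was the highest of the 10 LV arrays. AGTR1 averaged 0.11 ± 1.26 in septum of cortisol lambs and 0.57 ± 0.30 in septum of control lambs, and 0.15 ± 0.85 in LV of cortisol lambs and 0.33 ± 0.27 in LV of control lambs (SD, n = 5 each). Cortisol minus control was -0.45 ± 0.51 (SE) in septum, with a 95% interval of -1.57 to 0.67, and -0.18 ± 0.36 in LV, with an interval of -0.97 to 0.62. Adjusted p in limma was 0.841 in septum and 0.950 in LV. Without cortisol lamb 3 the sign turned in both walls, to 0.09 in septum and 0.08 in LV, whereas without cortisol lamb 5 the difference was -0.66 in septum and -0.50 in LV.

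AGTR2, the receptor subtype of fetal tissues, varied widely within every group. Its septum levels were -2.66, -5.48, -1.82, -3.53 and -6.78 in cortisol lambs 1 to 5, against -3.77, -5.17, -2.63, -3.42 and -3.39 in control lambs. In LV they were -1.99, -4.82, -1.78, -3.12 and -4.78 in cortisol lambs, against -3.49, -4.50, -1.56, -2.87 and -2.86 in control lambs. Cortisol lambs 2 and 5 and control lamb 2 were the lowest in both walls, and each of these had at least 1 array that was not well above background. The averages were -4.05 ± 2.04 in septum of cortisol lambs and -3.68 ± 0.93 in septum of control lambs, and -3.30 ± 1.46 in LV of cortisol lambs and -3.06 ± 1.07 in LV of control lambs (SD, n = 5 each). Cortisol minus control was -0.38 ± 0.86 (SE) in septum, with a 95% interval of -2.28 to 1.52, and -0.24 ± 0.69 in LV, with an interval of -1.77 to 1.28. Adjusted p in limma was 0.917 in septum and 0.962 in LV. The second probe gave -0.44 ± 0.94 in septum and -0.73 ± 0.77 in LV. Without cortisol lamb 5 the brighter probe's difference turned to 0.30 in septum and 0.12 in LV, and in LV it also turned without cortisol lamb 2 (0.14) or control lamb 3 (0.13). Without cortisol lamb 3 it was -0.94 in septum and -0.62 in LV.

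The place of cortisol and control lambs in the order of a receptor's 4 group means was therefore not resolved. AGTR1 was highest in septum of control lambs and lowest in septum of cortisol lambs, AGTR2 highest in LV of control lambs and lowest in septum of cortisol lambs, and ADRB1 highest in septum of cortisol lambs and lowest in septum of control lambs. Neighbouring means in these orders lay closer together than the larger of their SDs, except that ADRB1 of cortisol lambs was -2.02 in septum and -2.46 in LV, a gap past both SDs that the paired test did not pass (adjusted p in limma 0.178). Those SDs are between lambs, and the walls share lambs, so a gap between walls is judged by the paired test. Over both treatments AGTR2 alone passed it, lower in septum.

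**Figure D2:**
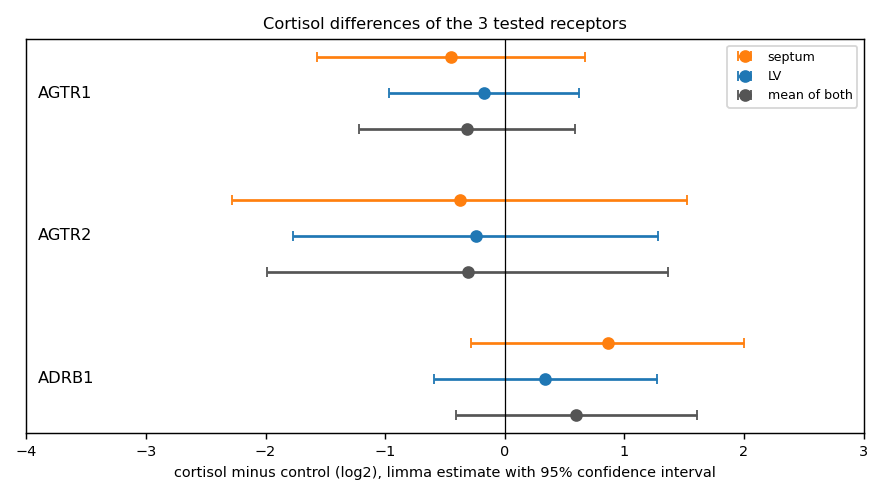
Cortisol minus control on the log2 scale for the 3 tested receptors, with limma estimates and 95% confidence intervals in septum, in LV and for the mean of each lamb's arrays (n = 5 lambs per group). Every interval spans 0, and those of AGTR2 are the widest, reaching from -2.28 to 1.52 in septum.

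The lack of calls was shared by the whole array. In limma 0 of 10372 probes passed in septum (0%; 384 at an unadjusted p under 0.05) and 0 of 9795 in LV (0%; 505 at an unadjusted p under 0.05). With the 2 arrays of a lamb averaged, cortisol minus control was 0.60 ± 0.46 (SE) for ADRB1, -0.31 ± 0.41 for AGTR1 and -0.31 ± 0.76 for AGTR2, and again 0 of 10071 probes passed (0%; 519 unadjusted).

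Within slides the cortisol differences did not keep 1 size. In septum, ADRB1 stood at 0.32 on slide 1, with 3 lambs of each group, and at 1.68 on slide 2, with 2 of each. AGTR1 in septum stood at -0.55 on slide 1 and -0.31 on slide 2. AGTR2 took opposite signs in septum, 0.80 on slide 1 and -2.14 on slide 2. In LV, slide 3 held 3 lambs of each group and slide 2 held 1 cortisol and 2 control lambs. There ADRB1 stood at -0.15 on slide 3 and 0.78 on slide 2. AGTR1 stood at -0.35 on slide 3 and 0.89 on slide 2, and AGTR2 at 0.75 on slide 3 and -2.56 on slide 2, so that all 3 differed in sign between the slides in LV. None of these passed (lowest adjusted p in limma 0.683 in septum and 0.443 in LV). On slide 2 in LV the 1 cortisol lamb, lamb 5, is assumed to vary like the control lambs, which alone gave the spread. For AGTR1 and AGTR2 the change of sign there rests on that lamb. For ADRB1 that lamb (-2.64) lay beside control lamb 5 (-2.66), and the positive value came from control lamb 3 (-4.19), not well above background. With slide as a fixed block the difference in septum was 0.86 for ADRB1, -0.45 for AGTR1 and -0.38 for AGTR2, and in LV it was 0.13 for ADRB1, 0.03 for AGTR1 and -0.27 for AGTR2.

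The receptors also differed in how much the lambs of a group spread. In septum the SD of ADRB1 was 0.32 among cortisol lambs and 1.29 among controls, and in LV it was 0.31 among cortisol lambs and 1.03 among controls. Against all tested probes of the same group, that placed ADRB1 at the 29.5 percentile in septum and the 23 percentile in LV among cortisol lambs, but at the 98.6 percentile in septum and 96.1 in LV among control lambs. AGTR1 ran the other way, at the 96 percentile in septum and 84.4 in LV among cortisol lambs and at 55.3 in septum and 40.5 in LV among control lambs. AGTR2 was among the most variable probes in all 4 groups, at the 96.4 to 99.4 percentile. This ranking took tested probes of any brightness, and AGTR2 was well above background on only 16 of 20 arrays. The part of dim spots in its spread was not tested. These differences of spread were not tested.

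Septum was then compared with LV within each lamb, which asks where in the wall of the newborn heart the receptors are more abundant. AGTR2 was lower in septum and was the 1 receptor that passed. AGTR1 and ADRB1 did not differ beyond their spread. Septum minus LV for AGTR2 was -0.67, -0.66, -0.03, -0.41 and -2.00 in cortisol lambs 1 to 5 and -0.28, -0.67, -1.07, -0.55 and -0.53 in control lambs 1 to 5. The septum value was lower in 10 of 10 lambs, though in cortisol lamb 3 the walls were nearly equal. The same holds, lower in 10 of 10, for 333 of 9931 probes (3.35%). The mean difference was -0.69 ± 0.16 (SE, n = 10 lambs), a level in septum 0.621 times that in LV, with an adjusted p in limma of 0.0168. By that test 1769 of 10071 probes passed (17.6%), 1021 of them lower (10.1%) and 748 higher in septum (7.43%).

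The second AGTR2 probe stood at -0.62 ± 0.21 (SE), was lower in septum in 8 of 10 lambs, and did not pass (adjusted p in limma 0.0631). Without cortisol lamb 5, which had the largest difference on both probes, the second probe passed at -0.42 (adjusted p in limma 0.0411) and the brighter probe stood at -0.53. Over the 20 arrays the 2 probes ran together (Pearson r = 0.978 as a description, since they read the same RNA extracts). By treatment the brighter probe stood at -0.75 ± 0.23 (SE) in cortisol lambs and -0.62 ± 0.23 in control lambs, and neither passed alone (adjusted p in limma 0.124 in cortisol lambs and 0.118 in control lambs), where 1.26% of probes passed in cortisol lambs and 7.85% in control lambs. The control lambs alone passed without cortisol lamb 5 (adjusted p in limma 0.0164), since both treatments share 1 estimate of the spread.

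Probes at background and a group of cell markers also differed between the walls. Probes that were never above background (2753 of them) had a median septum minus LV of -0.57, and 98.2% of them were negative, whereas the tested probes had a median of 0.01 with 47.7% negative. In single lambs the median of those background probes ran from -1.29 to 0.28, and AGTR2 lay below it in 4 of 10 lambs, with a mean gap of -0.09 ± 0.91 (SD, n = 10). Before scaling, the AGTR2 intensity was lower in septum in 4 of 10 lambs. In cortisol lamb 5 it was 2.65 units in septum and 9.89 units in LV, and in cortisol lamb 4 it was 22.1 units in septum and 45.8 units in LV. In control lamb 3 it was 45.5 units in septum and 43.6 units in LV. AGTR2 was well above background on both arrays of 7 of 10 lambs. The 4 measured members of an 8-gene fibroblast list, COL1A1, COL1A2, COL3A1 and DCN, which encode collagens and the matrix proteoglycan decorin, were well above background on all 20 arrays, and their mean level was also lower in septum in 10 of 10 lambs, by -0.70 ± 0.30 (SD). The lambs did not rank alike on these measures. Cortisol lamb 5, with the largest AGTR2 difference (-2.00), had the smallest fibroblast difference (-0.22) and a background median of 0.17, and cortisol lamb 3, with the smallest AGTR2 difference (-0.03), had the largest fibroblast difference (-1.12) and a background median of -0.69. The mean fibroblast level ranged from -0.26 to 1.54 in septum of cortisol lambs, -0.33 to 0.50 in septum of control lambs, -0.03 to 2.01 in LV of cortisol lambs and 0.63 to 1.05 in LV of control lambs. The part of array brightness and of fibroblast RNA in the mean AGTR2 difference was not tested.

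The AGTR2 call was lost in 6 alternatives. Normexp background correction gave -0.17 (adjusted p in limma 1.00). It adds an offset of 50 units, which shrinks the log2 differences of a probe as dim as this one (2.65 to 45.8 units). Its value therefore does not show whether the difference depends on background subtraction. Slide as a fixed block gave -1.26 (adjusted p in limma 0.0743). That fit gives the difference of the 3 lambs with both arrays on slide 2, with treatment effect and spread estimated over all lambs. Fitted alone, those 3 lambs gave -1.40, so both values describe the same lambs. The -1.40 lies midway between the control lambs (-0.80) and cortisol lamb 5 (-2.00), whose septum array was not well above background. Slide as a random block gave -0.78 (adjusted p in limma 0.875), in a fit that also left out the pairing by lamb. With lamb as a random block the difference was -0.69 (adjusted p in limma 0.0878), and with no pairing of the walls by lamb it was also -0.69 (0.713).

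**Figure D3:**
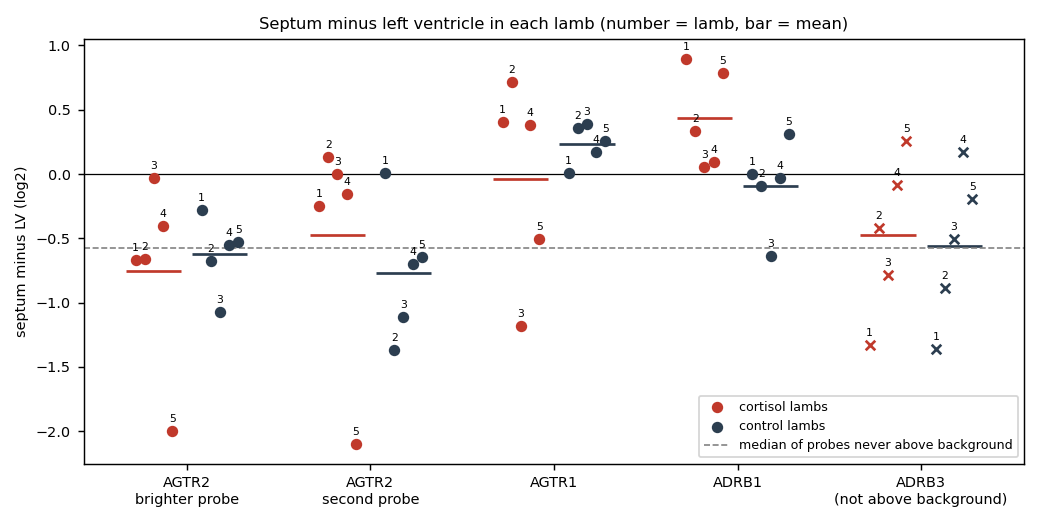
Septum minus LV on the log2 scale in each lamb, 1 point per lamb numbered by lamb, with a bar at the mean of cortisol lambs (red) and of control lambs (dark). All 10 points of the brighter AGTR2 probe lie below 0, and the dashed line marks the median of -0.57 over probes never above background, near which the ADRB3 points (crosses, not above background) are scattered.

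**Figure D4:**
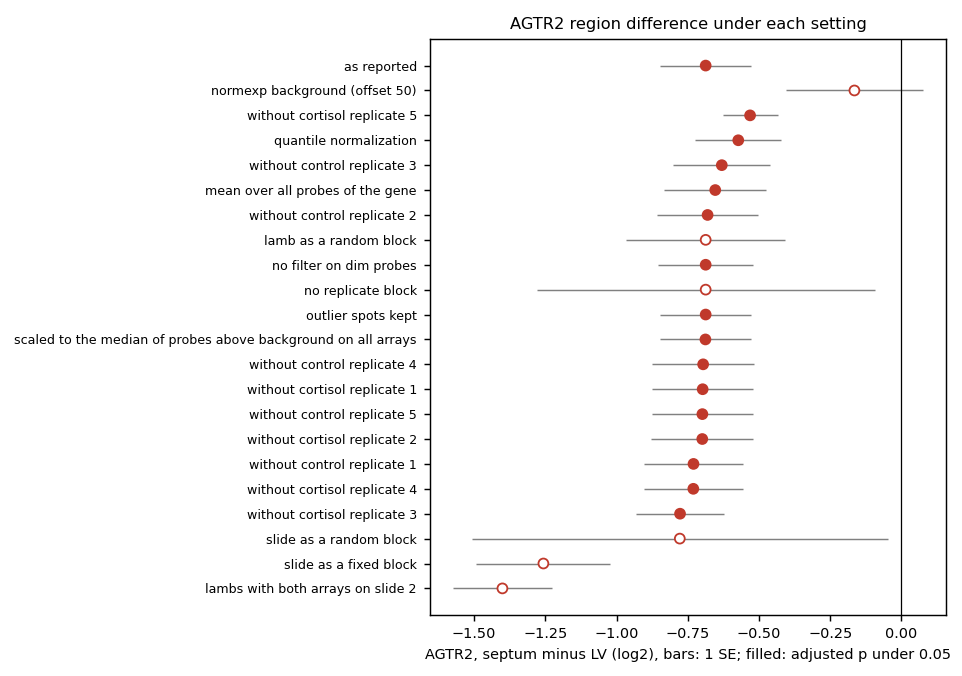
AGTR2 difference between septum and LV (log2, brighter probe) under each processing setting, with bars of 1 SE and filled points where the adjusted p was under 0.05. All points lie below 0. Of the 21 alternatives 15 pass, and 10 of those are fits that left out 1 lamb. The values run from -1.40 in the 3 lambs with both arrays on slide 2 to -0.17 with normexp background (offset of 50 units). Cortisol lamb 5 is the 1 cortisol lamb among those 3.

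For ADRB1, septum minus LV was 0.90, 0.33, 0.06, 0.09 and 0.79 in cortisol lambs 1 to 5 and 0.00, -0.09, -0.64, -0.03 and 0.31 in control lambs 1 to 5. All 5 cortisol lambs were positive, as was 1 control lamb, and the 2 sets overlapped. The mean over the 10 lambs was 0.17 ± 0.11 (SE; adjusted p in limma 0.294), and it was 0.43 ± 0.16 in cortisol lambs (adjusted p in limma 0.178) and -0.09 ± 0.16 in control lambs (adjusted p in limma 0.755). The test of the difference itself, the cortisol effect in septum minus that in LV, gave 0.52 ± 0.22 (SE) for ADRB1, with a 95% interval of 0.04 to 1.01 and an adjusted p in limma of 0.997. Of 10071 probes 0 passed that test (0%; 362 at an unadjusted p under 0.05), so ADRB1 is not shown to respond differently in the 2 walls. The same test gave -0.27 ± 0.32 for AGTR1 and -0.13 ± 0.32 for AGTR2.

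For AGTR1, septum minus LV was 0.40, 0.71, -1.18, 0.38 and -0.50 in cortisol lambs 1 to 5 and 0.01, 0.35, 0.39, 0.17 and 0.26 in control lambs 1 to 5. It was positive in 8 of 10 lambs, and the 2 negative ones were cortisol lambs 3 and 5, which also held the lowest and the highest AGTR1 levels. The mean was 0.10 ± 0.16 (SE), with a 95% interval of -0.25 to 0.45 and an adjusted p in limma of 0.697. It was 0.24 ± 0.11 without cortisol lamb 3 and 0.01 ± 0.15 without cortisol lamb 2.

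Each receptor's level varied more between lambs than between the 2 arrays of a lamb. Both arrays of a lamb share its time of collection, which is not given, and its part was not tested. The SD between lamb means was 1.41 for AGTR2, against 0.38 between the 2 arrays of a lamb. It was 0.83 against 0.31 for ADRB1 and 0.74 against 0.39 for AGTR1. The lamb means of AGTR1 spanned 6.35-fold, with cortisol lamb 3 lowest and cortisol lamb 5 highest. Cortisol lamb 5 was lowest and cortisol lamb 3 highest for AGTR2, and control lamb 3 was lowest and control lamb 1 highest for ADRB1. In both of these the lowest lamb had 1 array not well above background, so no fold is given. Cortisol lambs 3 and 5 thus stood at opposite ends for the 2 angiotensin receptors.

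Septum and LV levels were correlated over the 10 lambs for all 3 receptors, as 3 of 6 relations that were examined. For AGTR2 Pearson's r was 0.945 (permutation p = 0.00012, adjusted over 6 relations 0.00072) and Spearman's rho 0.976 (permutation p = 4.0e-05, adjusted 0.00024). Without the 2 lambs farthest from the median r was 0.951, and it was 0.987 in the 6 lambs with arrays on slides 1 and 3. For AGTR1 r was 0.801 (permutation p = 0.00196, adjusted 0.00392) and rho 0.842 (permutation p = 0.00386, adjusted 0.0116), with r of 0.793 without the 2 farthest lambs and 0.954 on slides 1 and 3. For ADRB1 r was 0.911 (permutation p = 0.0015, adjusted 0.00392), while rho was 0.624 (permutation p = 0.0612, adjusted 0.122), with r of 0.757 without the 2 farthest lambs and 0.844 on slides 1 and 3. Slide 2 held both arrays of only 3 lambs, too few for a value. Arrays were taken as 1 lamb partly because same-numbered arrays correlated across probes. Agreement between walls was therefore likely beforehand, and these p-values do not set the receptors apart. Such agreement was common on these arrays. The median r over 9931 tested probes was 0.720, and 94.2% of probes had a lower r than AGTR2, 86.9% a lower r than ADRB1 and 63.5% a lower r than AGTR1.

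Between receptors the lamb means were not clearly related. AGTR1 against AGTR2 had r = -0.579 (permutation p = 0.0467, adjusted 0.0700) and rho = -0.406 (permutation p = 0.246, adjusted 0.295), with r = 0.01 without the 2 farthest lambs, so that relation rested on those lambs. On slides 1 and 3 its r was -0.692 over 6 lambs. ADRB1 against AGTR1 had r = 0.00 (permutation p = 0.863) and ADRB1 against AGTR2 r = -0.272 (permutation p = 0.471), and rho was 0.04 and -0.491 (permutation p = 0.922 and 0.155). Without the 2 farthest lambs their r was 0.326 and -0.381, and on slides 1 and 3 it was 0.329 and 0.124.

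**Figure D5:**
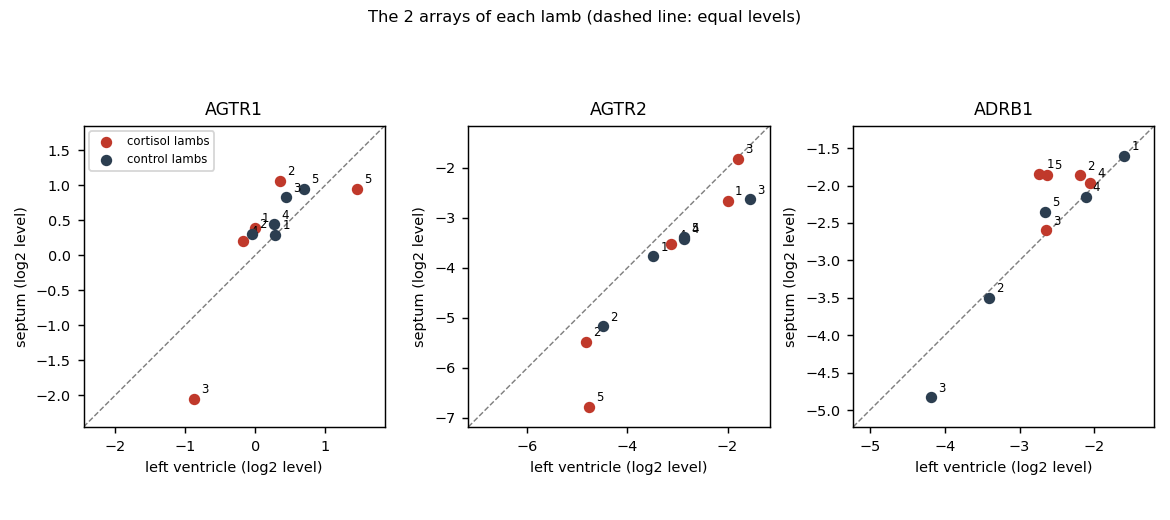
Level in septum (vertical axis) against level in LV (horizontal axis) for each lamb, both as log2 intensity minus the array's 75th percentile, with cortisol lambs red, control lambs dark and a dashed line where the walls are equal. The points follow the line for all 3 receptors, AGTR2 runs slightly below it, and cortisol lamb 3 lies far below the other lambs for AGTR1.

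Only a small part of both signalling pathways could be read. Of 112 listed genes of the angiotensin system and of adrenergic signalling, 13 were among the named genes, and 7 of these were bright enough to test. On the hormone-forming side, the angiotensin-converting enzyme (ACE, 4 probes) was well above background on 0 of 20 arrays, as was CYP11A1, the first enzyme of steroid synthesis. The steroid 11-beta-hydroxylase CYP11B1 and the kallikrein KLK1 were so on 2 of 20 each, and SLC6A2, the noradrenaline transporter of sympathetic nerve endings, on 1 of 20. CTSD, the protease cathepsin D, was the 1 member of the angiotensin list (6 of 30 measured) that was tested.

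In the cortisol comparison 0 of these 7 genes passed in either wall, in step with the 0% of all probes. PPP2CA, a catalytic subunit of protein phosphatase 2A, stood at 0.35 ± 0.15 (SE) in septum, with 5 of 5 cortisol lambs above the control mean, and at 0.49 ± 0.21 in LV, with 4 of 5. NPY, the peptide that sympathetic nerves release with noradrenaline, stood at 0.42 ± 0.31 in septum and 0.47 ± 0.42 in LV. RGS2, which dampens Gq signalling, was at 0.48 ± 0.50 in septum and 0.44 ± 0.45 in LV. PRKAR1A, a regulatory subunit of protein kinase A, was at 0.26 ± 0.18 in septum and 0.07 ± 0.20 in LV. In septum 5 of 7 differences were positive with a median of 0.26, and in LV 5 of 7 with a median of 0.07, where the medians over all tested probes were 0.03 and -0.01. Adjusted p in limma was at least 0.818 for all of them.

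Between the walls, 5 of the 7 pathway genes passed, 3 lower and 2 higher in septum, against 17.6% of all probes. PRKACA, the catalytic subunit of protein kinase A, fell in septum relative to LV by 0.58 ± 0.10 (SE; adjusted p in limma 0.00416), with 9 of 10 lambs lower. Its levels in septum were -0.71, -0.62, -0.78, -1.34 and -0.92 in cortisol lambs 1 to 5 and -0.89, -1.14, -1.49, -1.20 and -0.92 in control lambs, and in LV they were 0.16, -0.27, -0.21, -0.86 and -1.14 in cortisol lambs and -0.26, -0.43, -0.56, -0.24 and -0.43 in control lambs. In cortisol lamb 5 the septum was the higher one. PRKAR1A, which holds that catalytic subunit inactive until cyclic AMP binds, was higher in septum by 0.33 ± 0.06 in 10 of 10 lambs (adjusted p in limma 0.00416), as held for 3.6% of probes. NPY was lower in septum by -0.78 ± 0.16 in 9 of 10 lambs (adjusted p in limma 0.0107). CREM, a transcription factor that responds to cyclic AMP, was lower by -0.33 ± 0.09 (adjusted p in limma 0.0285), and CTSD was higher by 0.28 ± 0.07 (adjusted p in limma 0.0179), each in 9 of 10 lambs. RGS2, at 0.22 ± 0.08 (adjusted p in limma 0.0891), and PPP2CA, at 0.07 ± 0.11, did not pass. All 5 calls were lost with normexp background or with slide as a fixed or random block. As for AGTR2, the fixed block gives the slide 2 lambs and the random block leaves out the pairing by lamb. CREM lost its call in 5 of the 10 fits that left out 1 lamb (without control lamb 1, 3 or 5 or cortisol lamb 1 or 2). Further settings lost calls as well. Of 21 alternatives PRKACA, PRKAR1A, NPY and CTSD passed in 16 each and CREM in 10. Fits that left out 1 lamb made up 10 of each 16 and 5 of the 10 for CREM. NPY and SLC6A2 were the 2 measured members of an 8-gene list of sympathetic nerve and chromaffin cell markers, and the mean of these 2 was -5.27 to -3.25 in septum of cortisol lambs, -4.93 to -4.45 in septum of control lambs, -4.70 to -2.41 in LV of cortisol lambs and -4.21 to -3.68 in LV of control lambs. NPY is itself part of that mean and SLC6A2 was mostly at background, so the list gives no measure separate from NPY.

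Among 517 named genes, those whose levels ran most like each receptor's were picked by Pearson's r over the 20 arrays, each wall centred on its mean, as a description. For AGTR1 they included DOHH (r = 0.682) and ATP6V1B2 (0.677), with a median r of -0.194 over all 517. For AGTR2 they were SLC25A33 (0.716), RHOBTB2 (0.707) and EIF4A2 (0.654), with a median of 0.03. For ADRB1 they were AQP4 (0.687), PER2 (0.677) and ABHD5 (0.665), with a median of 0.11. The points share arrays, lambs and array scaling, so these values carry no test.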

How the data were processed

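RNA from septum and left ventricle of 10 newborn lambs was measured on 20 one-colour Agilent sheep arrays. The deposited processed intensity was made, per the file headers, in version 10.1.1.1 of the Agilent Feature Extraction software by background subtraction and detrending, with surrogate values for spots at background, so dim spots follow the noise of their array. A further table of values from the authors holds log2 intensity, scaled separately in septum and LV by steps not given in the sources used here (the submitters' processing notes name limma). It was used as an alternative for the cortisol comparisons, and held AGTR1 in both walls, ADRB1 and AGTR2 in LV, and ADRB3 in neither.

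Outlier spots were left out (2 to 68 per array), and log2 intensity was set relative to each array's 75th percentile, which was 155 to 440 units in septum and 98.4 to 400 in LV. The number of arrays limits the precision. Where a gene had several probes, the one brightest on average was used. Tests in limma 3.58.1 (R 4.3.3, statmod 1.5.0, version 1.17.8 of data.table) took probes that were called well above background on 5 or more of a wall's 10 arrays, or 10 or more of 20 for both walls, and p-values were adjusted over all of these by Benjamini-Hochberg, with a threshold of 0.05. Correlations used SciPy 1.17.1 with 100000 permutations, in Python 3.11.15, and figures matplotlib 3.10.9. The fits were tested on simulated data.

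The labels number the arrays within treatment and wall. Septum and LV arrays of the same treatment and number correlated at r = 0.447 to 0.813 across probes after group means were removed, each best with its own number in 10 of 10, and so counted as the 2 walls of 1 lamb. Numbers shared by cortisol and control lambs were not used as pairs in the main fits. Their r was 0.057 to 0.275 in septum and 0.073 to 0.289 in LV. It exceeded 0.1 in 3 of 5 pairs in septum and 4 of 5 in LV. In each wall 3 of 5 were best with their own number, so some shared structure may remain.

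Names came from RefSeq symbols of assembly ARS-UI_Ramb_v3.0 matched by accession, gene identifier, symbol or synonym, and 8 probes were named from their description. Of 15008 probes 1391 were named. All members are named; of the pathway lists, the 3 genes with the smallest unadjusted p in each of LV, septum and septum minus LV, and any that pass, are given with values, and for each receptor the 3 genes most like it. A few genes that meet these rules are not reported here. Members, lists and tests were chosen with earlier results of these data known.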

Additional observations from a re-analysis of the deposited data

Results flagged for a closer look

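In 18 groups of 5 values checked for a sample far from the rest, 2 were found, both in cortisol lamb 3 and both in septum. Its ADRB1 level was -2.60, below the other 4 septum arrays of cortisol lambs (-1.96 to -1.84). Its AGTR1 level was -2.05, where the other 4 lay between 0.21 and 1.07. Chance alone marks about 1 in 20 such groups. In LV of the same lamb ADRB1 was -2.65 and AGTR1 was -0.87, and that AGTR1 level was the lowest of the 5 cortisol lambs.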

How the results depend on the processing

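Lower AGTR2 in septum than in LV kept its sign in 21 of 21 alternatives and passed in 15. Of those 15, 10 were the fits that left out 1 lamb. Without the lamb pairing (no replicate block) the AGTR2 difference was -0.69 with an adjusted p in limma of 0.713. With lamb as a random block it was -0.69 (adjusted p in limma 0.0878). Normexp background, with its offset of 50 units, gave -0.17 (adjusted p in limma 1.00). Slide as a fixed block, which gives the difference in the slide 2 lambs, gave -1.26 (adjusted p in limma 0.0743). The 3 lambs with both arrays on slide 2 gave -1.40 when fitted alone. Slide as a random block, which also leaves out the lamb pairing, gave -0.78 (adjusted p in limma 0.875). Leaving out 1 lamb gave -0.78 to -0.53 and adjusted p of 0.00492 to 0.0431. The cause of the lost calls was not tested. In control lambs alone AGTR2 passed only without cortisol lamb 5 (adjusted p in limma 0.0164).

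The counts of all probes that differed between septum and LV depended on the same choices. Here too the fixed slide block gives the difference in the slide 2 lambs, and the random slide block leaves out the pairing by lamb. Over the 10 lambs the count of 1769 became 0 in the slide 2 lambs, 0 with slide as a fixed block, 2 with slide as a random block, 8 with normexp and 55 with no replicate block, and 1107 to 2284 without 1 lamb (1107 without control lamb 1 and 1141 without control lamb 3). In cortisol lambs the count of 127 became 0 with normexp, with no replicate block and with either slide block, 32 with no filter on dim probes, 251 with probes above background on every array, 307 with lamb as a random block, and 40 to 528 without 1 lamb (528 without cortisol lamb 5, 40 to 68 without any other). On slide 2 it was 0 as well, but from 1 cortisol lamb assumed to vary like the control lambs. In control lambs the count of 791 became 0 in the slide 2 lambs, with normexp and with slide as a random block, 4 with no replicate block, 77 with slide as a fixed block, and 172 to 1194 without 1 lamb (1194 without cortisol lamb 4, 172 to 316 without a control lamb). Where a count was 0, limma gave 183 to 1706 probes at an unadjusted p under 0.05.

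For the cortisol comparisons and their difference between walls, 0 probes passed in any alternative, including the replicate block on numbers shared by control and cortisol lambs (221 to 1119 unadjusted in LV and 7 to 1817 in septum over all alternatives). ADRB1 kept a positive sign in 22 of 22 alternatives in septum (0.32 to 1.68) and 20 of 22 in LV (-0.15 to 0.78). AGTR1 stayed negative in 22 of 23 in septum and 20 of 23 in LV, and AGTR2 in 18 of 21 and 18 of 22. ADRB3 counted as detected on 10 arrays by the weaker scanner criterion. AGTR2 was not well above background on 4 of 20 arrays, which limits its differences.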
